A study of Mus musculus with 9 samples.

Results

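The oxidative phosphorylation genes described here were the protein-coding genes whose mouse symbol began with Nduf, Uqcr, Atp5 or Cox followed by a digit from 4 to 8, the succinate dehydrogenase genes Sdha to Sdhd, and the protein-coding genes of mitochondrial DNA. This rule gave 106 genes of the 51912 in the table of counts, of which 93 were encoded in the nucleus and 13 in mitochondrial DNA (mtDNA). By role, the nuclear genes comprised 36 subunits of complex I (7 core and 29 accessory), 8 complex I assembly factors, 4 subunits of complex II, 8 of complex III, 11 of complex IV and 16 of complex V, together with 8 isoforms known for restricted expression, the supercomplex factor Cox7a2l and the ATP synthase-associated factor Atp5s. The mitochondrial genes encoded 7 subunits of complex I, 1 of complex III, 3 of complex IV and 2 of complex V. Cox7b2, Cox8b, Cox8c and Ndufa4l2 had 0 counts in every sample, and 100 genes (87 nuclear and 13 mitochondrial) had enough counts to be tested.

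The respiratory chain passes electrons from NADH (complex I) and succinate (complex II) through complex III to oxygen at complex IV, and ATP synthase (complex V) uses the resulting proton gradient to make ATP. All complexes except complex II are built from subunits of both genomes. Nuclear transcripts are made from many separate promoters and translated in the cytosol, whereas mtDNA is transcribed as long polycistronic RNAs, 1 from each strand, that are cut at the tRNAs lying between the genes.

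RNA was measured in precursors of conventional dendritic cells (pre-cDCs) sorted from mixed bone marrow (BM) chimeras. Irradiated CD45.1/2 recipients had received equal parts of wild-type (WT) BL/6 CD45.1 BM and DNGR-1 knockout (DNGR-1 KO) CD45.2 BM, the latter homozygous for a Cre knock-in at Clec9a that was made in BL/N embryonic stem cells and backcrossed to C57BL/6J, so that both genotypes developed in the same hosts. BM gave 3 samples of each genotype, whereas spleen gave 1 of WT and 2 of DNGR-1 KO cells, each pooled from a pair of mice. No treatment was given, and the congenic CD45 background separates the genotypes in every sample, so that it and DNGR-1 cannot be told apart. None of the members lay in the interval around the CD45 gene on chromosome 1 from which the methods draw a set of congenic genes. By position, 560 genes of the table of counts lay in this interval. WT samples carry both CD45.1 and CD45.2 in their labels, in separate fields, and were taken as CD45.1 from the methods. As the 9 samples came from 6 mice, some samples shared mice, and which of them did is not given in the sources used here. The p-values therefore measure the spread between these samples, which may in part be technical. Genotypes were compared in BM to ask whether loss of DNGR-1 altered the precursors, and tissues were compared to describe the pre-cDCs found in each.

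Library totals lay between 17103806 and 23722298 counts, so that 3 counts corresponded to between 0.126 and 0.175 counts per 1000000 counts (CPM). This range uses the totals as they are, whereas the other CPM values were normalized between samples. Clec9a, which encodes DNGR-1, had 905, 1574 and 1766 counts in the WT BM samples, 2459 in WT spleen, 1 in each DNGR-1 KO BM sample and 0 in both DNGR-1 KO spleen samples. All 18 pre-cDC and cDC markers exceeded 3 counts in every sample. The spleen samples differed from BM in markers of other cells. T and NK cell markers summed to between 15.1 and 47.1 CPM in BM and to between 1427 and 5684 CPM in spleen, where 12 of 15 exceeded 3 counts in every sample. Erythroid markers summed to between 254 and 4398 CPM in BM and to between 8743 and 51121 CPM in spleen, although of the 10 markers 5 were called higher there and 2 lower, and 5 exceeded 3 counts in every spleen sample against 8 in BM. Macrophage markers summed to between 17.7 and 75.8 CPM in BM and to between 189 and 788 CPM in spleen. Neutrophil markers summed to between 1000 and 2985 CPM in BM and to between 0.337 and 4.95 CPM in spleen, with S100a8, Elane, Lcn2 and Retnlg at 0 there. The 14 proliferation markers, summing to between 4611 and 5647 CPM in BM and between 410 and 636 CPM in spleen, were all lower in spleen. The part of these markers' cells in the differences between tissues was not tested, and in bulk RNA fewer cells of a type and less RNA per cell cannot be told apart. WT BM replicate 1 stood apart for the members: it was the highest of the 6 BM samples for 77 of 87 nuclear members (88.5%) and 10 of 13 mitochondrial members (76.9%), against 28.9% of all 13016 genes tested in BM. DNGR-1 KO BM replicate 2 was the lowest of the 6 for 62 of 87 nuclear members (71.3%) and 2 of 13 mitochondrial members (15.4%), against 21.1% of all genes.

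The summed nuclear members were lower in spleen than in BM, and the summed mitochondrially encoded members were higher by their means. The nuclear members together took 2.70, 1.93 and 1.87% of the counts of the WT BM samples, 1.97, 1.56 and 2.11% of the DNGR-1 KO BM samples, 1.37% of WT spleen and 1.38 and 1.33% of DNGR-1 KO spleen. Every spleen sample therefore lay below every BM sample. The mitochondrial members took 1.27, 1.04 and 0.735% of the counts in WT BM, 0.612, 0.694 and 0.608% in DNGR-1 KO BM, 1.23% in WT spleen and 1.35 and 1.40% in DNGR-1 KO spleen. Here only WT BM replicate 1 reached into the range of the spleen samples. In normalized units the nuclear sum was 20018 ± 4509 CPM in BM (SD, n = 6) and 14085 ± 787 CPM in spleen (SD, n = 3), 1.40-fold lower in spleen by geometric means. The mitochondrial sum was 8166 ± 2842 CPM in BM and 13765 ± 1079 CPM in spleen, 1.76-fold higher in spleen by geometric means. Among WT samples alone the mitochondrial sum was 13278, 9668 and 7000 CPM in BM and 12566 CPM in the 1 spleen sample, within the BM range, whereas in DNGR-1 KO it was 5735, 6963 and 6353 CPM in BM and 14658 and 14072 CPM in spleen, without overlap.

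The balance between both genomes separated the tissues without overlap. The mitochondrial sum was 0.471, 0.539 and 0.392 times the nuclear sum in WT BM, 0.311, 0.445 and 0.288 times in DNGR-1 KO BM, 0.902 times in WT spleen, and 0.981 and 1.05 times in DNGR-1 KO spleen. On the log2 scale this ratio was −1.33 ± 0.35 in BM (SD, n = 6) and −0.03 ± 0.11 in spleen (SD, n = 3), with every spleen sample above every BM sample. The sums are descriptions over genes chosen by name and carry no test. By complex, the nuclear sums differed between spleen and BM by −0.45 (complex I), −0.60 (complex II), −0.48 (complex III), −0.45 (complex IV) and −0.57 (complex V) in log2, whereas the mitochondrial sums of complexes I, III, IV and V differed by 0.95, 1.04, 0.61 and 0.74. Each of the 4 complexes of mixed origin thus had its nuclear sum lower and its mitochondrial sum higher in spleen, by means over both genotypes. Among WT samples alone the mitochondrial sum of complex IV went the other way, at 4012, 3155 and 2255 CPM in BM and 2897 CPM in the 1 spleen sample. The summed complex I assembly factors, which help to build complex I and are not part of it, differed by 0.01.

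**Figure D1:**
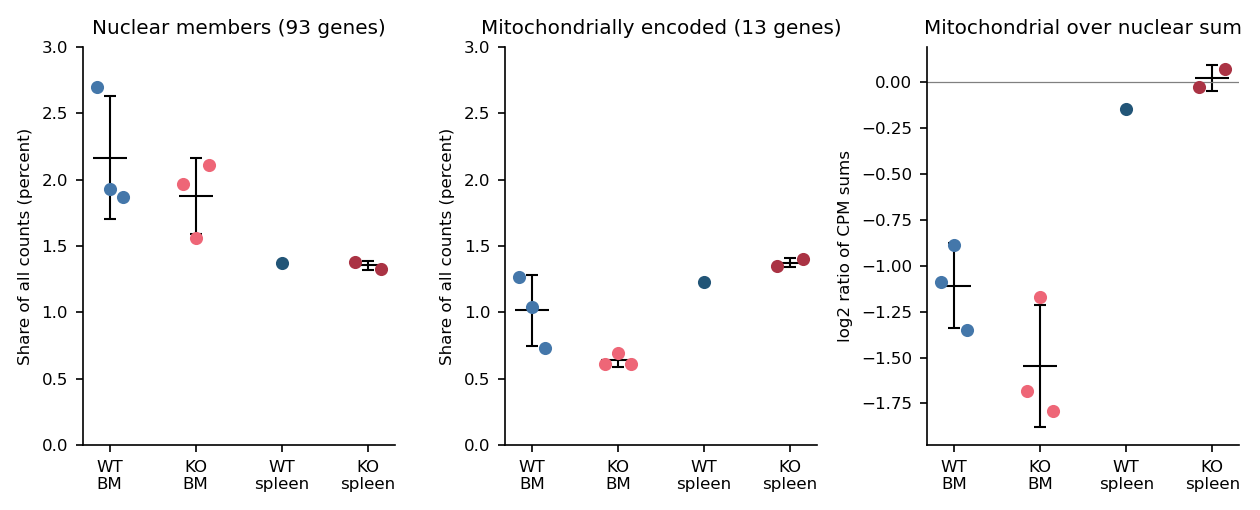
Summed level in each of the 9 samples, by group, of the nuclear and the mitochondrially encoded members as percent of the sample's counts, and log2 of their ratio; points are samples and bars the mean ± SD of each replicated group. The nuclear sums of the spleen samples, 1.33 to 1.38%, lie below all BM samples, and the log2 ratio lies above all BM samples.

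Of the 13 mitochondrial genes, 8 were higher in spleen than in BM at an adjusted p under 0.05 and none was lower (edgeR quasi-likelihood test with genotype in the model, Benjamini-Hochberg adjustment over 13468 genes). Among all genes tested, 7.28% were called higher in spleen and 12.3% lower. Since the mitochondrial genes are transcribed together on long RNAs, their calls are not 13 separate observations to set against these shares. The median log2 fold change was 1.12 over the mitochondrial genes and −0.18 over all genes tested. For 7 of the 13 genes (mt-Nd4, mt-Nd5, mt-Nd6, mt-Cytb, mt-Co1, mt-Co2 and mt-Atp8) all spleen samples lay above all BM samples, as they did for 9.15% of all genes. All positions given for these genes are on chromosome M of GRCm38.

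Among the complex I genes of mtDNA, 4 of 7 passed the test. mt-Nd4 (positions 10167 to 11544), a proton-pumping membrane subunit, ranged from 322 to 696 CPM in BM with a median of 407, and was at 981 CPM in WT spleen and at 934 and 900 CPM in DNGR-1 KO spleen. The groups did not overlap, and mt-Nd4 rose by 1.16 on the log2 scale (SE 0.21, adjusted p = 0.00531). mt-Nd5 (11742 to 13565), another pumping subunit, had 275, 334 and 492 CPM as lowest, median and highest BM values and 923, 764 and 746 CPM in WT and DNGR-1 KO spleen. Its rise was 1.22 (SE 0.19, adjusted p = 0.00247), again without overlap. mt-Nd6, the only protein gene on the opposite strand (13552 to 14070, minus strand), had 17, 30.0 and 35.0 CPM in BM and 61.4, 76.1 and 96.9 CPM in spleen, a rise of 1.44 (SE 0.28, adjusted p = 0.00702). mt-Nd2 (3914 to 4951) had 81.5, 101 and 254 CPM in BM and 229, 307 and 444 CPM in spleen. Here WT BM replicate 1, at 254 CPM, lay above WT spleen, and the rise was 1.46 (SE 0.39, adjusted p = 0.0294). mt-Nd1 (2751 to 3707) had 953, 1136 and 2488 CPM in BM against 2021, 2558 and 2251 CPM in spleen, with a log2 fold change of 0.87 that missed the threshold (SE 0.29, adjusted p = 0.0642). The short genes mt-Nd3 and mt-Nd4l had log2 fold changes of −0.28 (adjusted p = 0.812) and 0.45 (adjusted p = 0.627), and their spleen values lay within the BM range except for DNGR-1 KO spleen replicate 2 of mt-Nd3, which lay under it.

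mt-Cytb (14145 to 15288), the cytochrome b of complex III and its only mitochondrial subunit, had 768, 877 and 1731 CPM in BM and 2340, 2252 and 1780 CPM in spleen. The highest BM value, from WT BM replicate 1, lay just under the lowest spleen value, and the rise was 1.12 (SE 0.23, adjusted p = 0.00996). Among the catalytic core subunits of complex IV, mt-Co1 (5328 to 6872) had 940, 1184 and 1777 CPM in BM and 1808, 3262 and 3024 CPM in spleen (log2 fold change 1.11, SE 0.30, adjusted p = 0.0279). Its WT spleen value was close to WT BM replicate 2, the highest in BM. mt-Co2 (7013 to 7696) had 167, 201 and 387 CPM in BM and 430, 561 and 494 CPM in spleen, and rose by 1.20 (SE 0.26, adjusted p = 0.0123). mt-Co3 (8607 to 9390) did not follow them: its BM values were 763, 1045 and 1852 CPM and its spleen values 659, 987 and 856 CPM, with a log2 fold change of −0.37 (SE 0.29, adjusted p = 0.434). All 3 spleen values of mt-Co3 were under the BM median.

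The genes of ATP synthase in mtDNA, which overlap each other, both had higher spleen levels but only 1 passed the test. Reads from the overlap can be assigned to either gene, so their fold changes are not separate measures. The effect of this split on the difference between them was not tested. mt-Atp8 (7766 to 7969) had 56.6, 85.9 and 181 CPM in BM and 391, 250 and 439 CPM in spleen, and rose by 1.97 (SE 0.29, adjusted p = 0.00204), the largest fold change of the 13 genes at 3.93-fold. mt-Atp6 (7927 to 8607) had 1193, 1668 and 3314 CPM in BM and 2685, 2664 and 3028 CPM in spleen, with a log2 fold change of 0.70 (SE 0.26, adjusted p = 0.0935). WT BM replicate 1 exceeded all spleen samples for mt-Atp6. The calls for mt-Nd4, mt-Nd5, mt-Nd6, mt-Cytb, mt-Co2 and mt-Atp8 held when any single sample was left out. That of mt-Co1 was lost without any one of the DNGR-1 KO samples of either tissue, and that of mt-Nd2 without any one of the DNGR-1 KO BM samples or without DNGR-1 KO spleen replicate 2. With the replicate number as a block, 5 of the 13 genes (mt-Nd4, mt-Nd5, mt-Cytb, mt-Co2 and mt-Atp8) were called higher, against 3.19% of all genes.

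**Figure D2:**
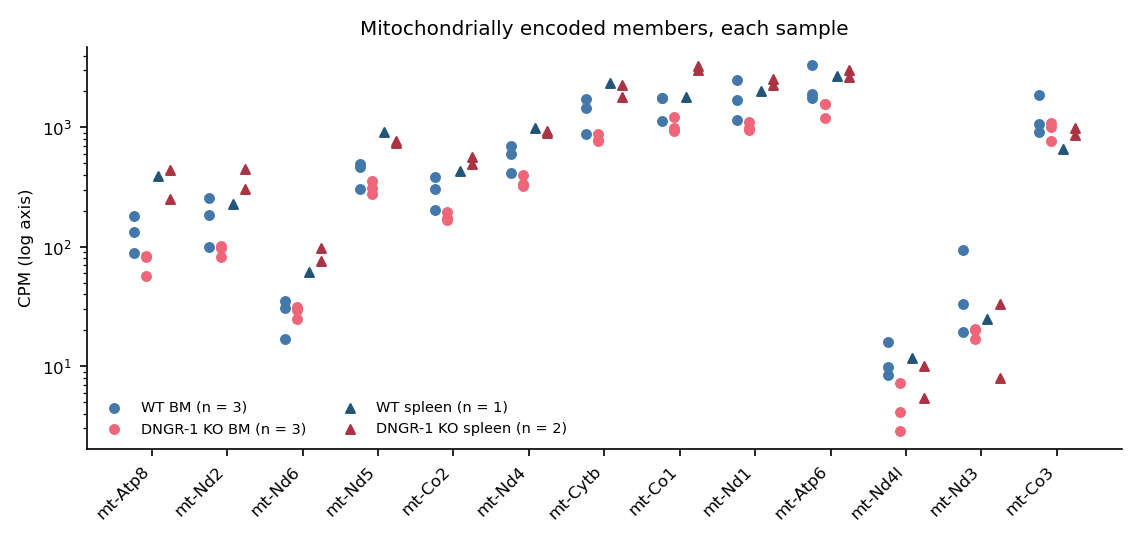
Level of each of the 13 mitochondrial genes in each sample (CPM, log axis), by tissue and genotype; points are samples. The spleen samples lie above all BM samples for 7 genes, among them mt-Atp8, and mt-Co3 lies within or below the BM range.

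Scaled for the merged length of all annotated exons of each gene, mitochondrial genes were the most abundant members in both tissues. In BM the highest mean level was that of mt-Atp6, at 7348 length-scaled CPM (CPM per kilobase of exon, rescaled to the same total in every sample), followed by mt-Nd1 (3909), mt-Co3 (3788), mt-Cytb (2539) and mt-Co1 (2297), and the most abundant nuclear members were Cox8a (1659) and Cox6b1 (1556). In spleen the order on the same scale was mt-Atp6 (9701), mt-Nd1 (5569), mt-Cytb (4360), mt-Atp8 (4242), mt-Co1 (4071) and mt-Co3 (2482). For nuclear genes with several transcripts the merged length can exceed that of the RNA, so their scaled levels may be too low. The order of nuclear against mitochondrial genes thus depends on the scaling. Unscaled, Atp5b had a mean of 2230 CPM in BM, against 1401 for mt-Nd1 and 1309 for mt-Co1. The scaled levels also leave out reads assigned to nuclear copies. The order among mt-Co1, mt-Co3 and the genes beside them therefore depends on how shared reads were split. The 2 mitochondrial ribosomal RNAs, encoded beside these genes but absent from the member list, had log2 fold changes of 1.37 (mt-Rnr2, adjusted p = 0.0142) and 1.06 (mt-Rnr1, adjusted p = 0.0694) in spleen, although the library preparation removed ribosomal RNA. All 22 mitochondrial tRNAs had 0 counts in every sample.

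Counts of several mitochondrial genes were divided with near-identical copies of mtDNA in the nucleus. The sequences below show how alike the copies on chromosome 1 are, since reads from the shared stretches cannot be assigned by sequence. The opening 60 bases of mt-Co3 (chrM:8607-8666, plus strand) and of its copy Gm28437 (chr1:24613912-24613971, minus strand), taken from the GENCODE transcripts of GRCm38 and read 5′ to 3′, were the same, as were all 783 bases that could be aligned.
mt-Co3: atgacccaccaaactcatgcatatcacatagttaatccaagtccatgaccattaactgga
Gm28437: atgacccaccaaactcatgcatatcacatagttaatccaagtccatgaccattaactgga
For mt-Co1 (bases 1054 to 1113, chrM:6381-6440, plus strand) and Gm29216 (bases 1 to 60, chr1:24616138-24616197, minus strand), the capitals mark all 6 mismatches of the 492 aligned bases. These lie in the opening 13 bases of the copy, and the 479 bases after them were identical.
mt-Co1: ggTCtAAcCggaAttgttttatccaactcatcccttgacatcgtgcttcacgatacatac
Gm29216: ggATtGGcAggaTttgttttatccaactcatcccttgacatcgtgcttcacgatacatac
The copy held between 42.2 and 52.4% of the counts of the pair for mt-Co3 and between 24.6 and 28.1% for mt-Co1, over the 9 samples. It held 36.6 to 51.0% for mt-Co2 and Gm28661, 29.2 to 36.2% for mt-Atp6 and Gm10925, 32.8 to 64.0% for mt-Nd3 and Gm28438, 72.0 to 88.5% for mt-Nd4l and Gm10222, and only 0.319 to 2.41% for mt-Nd4 and Gm28439. The levels of these genes are therefore uncertain, apart from mt-Nd4. With each pair's counts added together, mt-Co1 (1.14, adjusted p = 0.024), mt-Co2 (1.08, adjusted p = 0.0161) and mt-Nd4 (1.18, adjusted p = 0.00495) were again called higher in spleen, and mt-Co3 (−0.28, adjusted p = 0.538), mt-Atp6 (0.72, adjusted p = 0.0987), mt-Nd3 (−0.58, adjusted p = 0.48) and mt-Nd4l (0.89, adjusted p = 0.0626) were not. Overlapping genes share reads as well: mt-Atp8 with mt-Atp6, mt-Nd4l with mt-Nd4, and, on opposite strands, mt-Nd5 with mt-Nd6. Whether the counting used strand is not given in the sources used here, so the part of mt-Nd5 reads in the counts of mt-Nd6 was not tested.

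**Figure D3:**
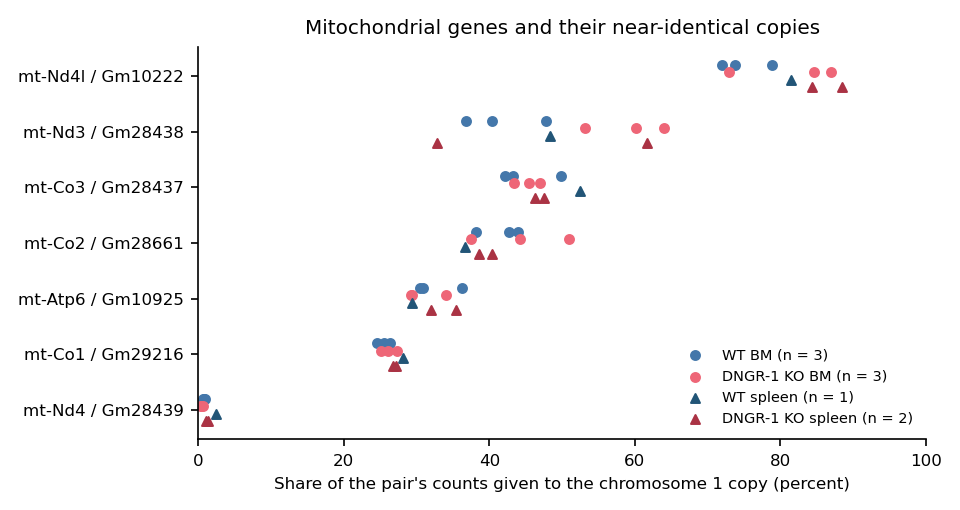
Share of the counts of each pair (percent) that was assigned to the nuclear copy on chromosome 1, for 7 mitochondrial genes; points are the 9 samples. The share runs from 0.319 to 2.41% for mt-Nd4 up to 72.0 to 88.5% for mt-Nd4l.

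Of the 87 nuclear members tested, 16 were lower in spleen at an adjusted p under 0.05 and none was higher (edgeR). Among the 16, Cox6a2 entered the test only through its counts in BM, and 15 remain without it. At an unadjusted p under 0.05, 1 was higher and 30 were lower, against 12.6 and 21.0% of all genes. Of the 87, 71 had a negative log2 fold change and 16 a positive one, against 7735 negative and 5733 positive of all 13468 genes. The median was −0.46, against −0.18 over all genes. The 16 called are 18.4% of the nuclear members, against 12.3% of all genes called lower. In 27 of the 87 all spleen samples lay below all BM samples, as they did for 17.4% of all genes. Complex I core subunits, which carry the redox centres, accounted for 3 of the calls (3 of 7 tested, median −0.65), accessory subunits for 3 of 29 (median −0.33), complex II for 2 of 4 (−0.68), complex III for 2 of 8 (−0.45), complex IV for 1 of 11 (−0.54) and complex V for 3 of 16 (−0.47). None of the 8 complex I assembly factors among the members was called, nor did any reach an unadjusted p under 0.05 (median 0.01). The count of calls rested on single samples: it was 5 without WT spleen (5.68% of nuclear members, against 10.2% of all genes), 6 without DNGR-1 KO BM replicate 3 (6.90 against 10.5%) and 9 without DNGR-1 KO BM replicate 1 (10.3 against 8.89%). The share of nuclear members called lower was therefore above that of all genes with all 9 samples but not in every fit, and was also below it without either DNGR-1 KO spleen sample (12.5 against 14.5% and 13.6 against 14.8%). Ndufv1, Sdhd, Atp5a1 and Cox6b2 were called with any one sample left out. With the replicate number as a block 2 nuclear members were called (2.30%, against 6.07% of all genes), Ndufv1 (adjusted p = 0.0405) and Cox6b2 (adjusted p = 0.0371), and Sdhd and Atp5a1 were not (0.0548 and 0.0533). In the DNGR-1 KO samples alone 1 nuclear member was called, against 6.23% of all genes. This was Cox6a2, which entered only through BM, and none of these 4 (adjusted p of 0.0502 to 0.0871). Without WT spleen, Ndufv2, Ndufb8, Ndufs8, Ndufb6, Ndufb9, Sdhc, Uqcrc1, Uqcrfs1, Cox5b, Atp5b and Atp5o were not called.

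In complex I, Ndufv1 (chromosome 19, 4007384 to 4012806), which binds NADH, had 205, 269 and 388 CPM as lowest, median and highest BM values and 98.1, 121 and 139 CPM in WT and DNGR-1 KO spleen. The groups did not overlap, and Ndufv1 fell by 1.19 on the log2 scale (SE 0.23, adjusted p = 0.00763), or 2.27-fold. Its partner in the NADH-oxidizing module, Ndufv2 (chromosome 17, 66078638 to 66101559), had 210, 230 and 329 CPM in BM and 143, 129 and 151 CPM in spleen, and fell by 0.83 (SE 0.21, adjusted p = 0.0201). Ndufs8, an iron-sulfur subunit, fell by 0.84 (adjusted p = 0.0325). By comparison the core subunit Ndufs1 had a log2 fold change of −0.52 (adjusted p = 0.239). Among the accessory subunits Ndufb8 (chromosome 19, 44548572 to 44555440) had 221, 238 and 347 CPM in BM and 150, 152 and 143 CPM in spleen, a fall of 0.80 (SE 0.20, adjusted p = 0.021), and Ndufb9 and Ndufb6 each fell by 0.89 (adjusted p = 0.0465 and 0.0495). The Ndufb subunits belong to the membrane arm, as do the subunits encoded in mtDNA. Ndufa12 (−1.08, adjusted p = 0.0596) and Ndufa13 (0.42, adjusted p = 0.173) did not pass the test.

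Complex II, succinate dehydrogenase, has no mitochondrial subunit. Its membrane anchors were called: Sdhd (chromosome 9, 50596357 to 50603812) had 245, 336 and 508 CPM in BM and 204, 153 and 158 CPM in spleen, and fell by 0.96 (SE 0.21, adjusted p = 0.012). Sdhc had 173, 216 and 337 CPM in BM and 111, 118 and 137 CPM in spleen, and fell by 0.88 (SE 0.23, adjusted p = 0.026). Both were without overlap between tissues. The catalytic subunits Sdha and Sdhb had log2 fold changes of −0.48 (adjusted p = 0.0995) and −0.33 (adjusted p = 0.304).

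In complex III the core protein Uqcrc1 (chromosome 9, 108936633 to 108949623) had 597, 707 and 1030 CPM in BM and 379, 405 and 458 CPM in spleen. It fell by 0.80 (SE 0.21, adjusted p = 0.024), and the Rieske iron-sulfur protein Uqcrfs1 by 0.72 (adjusted p = 0.0329), whereas Uqcr11 had a log2 fold change of −1.24 that missed the threshold (adjusted p = 0.0675). In complex IV the zinc-binding subunit Cox5b (chromosome 1, 36691449 to 36693681) had 191, 215 and 392 CPM in BM and 128, 130 and 112 CPM in spleen, and fell by 1.01 (SE 0.26, adjusted p = 0.0251). The other broadly expressed subunits Cox4i1 (−0.54, adjusted p = 0.178), Cox5a (−0.40, adjusted p = 0.245) and Cox8a (−0.72, adjusted p = 0.0592) did not pass.

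In complex V the catalytic head was called. Atp5b, the beta subunit (chromosome 10, 128083273 to 128090391), had 1694, 2194 and 3022 CPM in BM and 1514, 1285 and 1016 CPM in spleen, and fell by 0.78 (SE 0.21, adjusted p = 0.0307). Atp5a1, the alpha subunit, had 1089, 1230 and 1451 CPM in BM and 733, 671 and 708 CPM in spleen, and fell by 0.84 (SE 0.17, adjusted p = 0.00834). Neither gene overlapped between tissues. Atp5o, part of the stalk that joins head and membrane sector, fell by 0.87 (adjusted p = 0.0325). The 3 genes for the identical subunit c of the rotor ring had log2 fold changes of −0.92 (Atp5g1, adjusted p = 0.109), −0.53 (Atp5g2, adjusted p = 0.258) and −0.67 (Atp5g3, adjusted p = 0.116). Cox7a2l, which promotes joining of complexes III and IV, had 0.46 (adjusted p = 0.134).

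**Figure D4:**
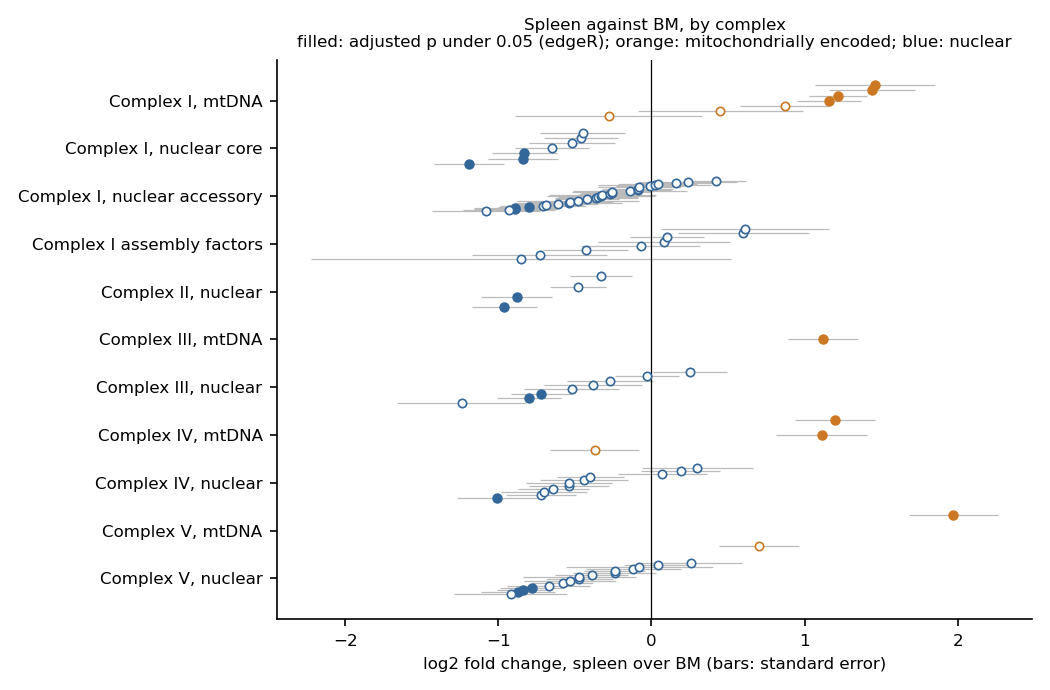
log2 fold change, spleen over BM, of each tested subunit and complex I assembly factor, grouped by complex and genome; bars are standard errors, filled points passed an adjusted p under 0.05, and restricted isoforms, Cox7a2l and Atp5s are not plotted. All filled nuclear points lie below 0, and the 8 filled mitochondrial points lie above it.

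Subunit isoforms known for restricted expression were mostly near or at 0. Of these, 2 passed the filter on low counts. Cox6a2 did so only through BM, so that its test is no evidence of a lower level in spleen. Cox6b2 (chromosome 7, 4751792 to 4753094), the isoform best known from testis, had 17, 46.3 and 88.8 CPM in BM and 17.4, 9.45 and 3.61 CPM in spleen. WT spleen lay within the BM range, just above its lowest sample, and the log2 fold change was −2.16 (SE 0.49, adjusted p = 0.0135). Cox6a2 (chromosome 7, 128205435 to 128206387), best known from heart and skeletal muscle and also a marker of plasmacytoid DCs, had 178, 86 and 203 counts in WT BM, 149, 128 and 189 in DNGR-1 KO BM, 17 in WT spleen and 0 in both DNGR-1 KO spleen samples (adjusted p = 0.036). Its call held in 3 of 9 fits with a sample left out: it was lost without WT BM replicate 1 or 3, without any DNGR-1 KO BM sample and without DNGR-1 KO spleen replicate 1, and also with the replicate block (adjusted p = 0.127). Summed plasmacytoid DC markers, Cox6a2 among them, lay between 574 and 867 CPM in BM and between 437 and 958 CPM in spleen, and their part in its level was not tested. Cox4i2 had 0 to 18 counts in the BM samples and 0 in spleen, and Cox7a1 had at most 22 counts in any sample.

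Promoter sequence was examined for features that the nuclear members share. RefSeq windows of 300 bases on GRCm38.p6 (250 bases before to 50 after each start) were found by symbol for 74 of the 93 nuclear members, giving 79 windows, and were compared with all 32851 such promoters. Both strands were searched for fixed letters. The core GCGCATGC of the NRF1 site occurred in 15.2% of member windows (12 of 79) and 2.71% of all promoters, the ETS-family core CCGGAAG in 22.8% (18 of 79) and 8.86%, the YY1 core AAGATGGCG in 10.1% (8 of 79) and 1.40%, and the SP core GGGCGG in 43.0% (34 of 79) and 35.7%. Among the 12 called members with a window, 1 held the NRF1 core, 3 the ETS core, none the YY1 core and 6 the SP core. These are matches of letters and not sites of binding, and no match says only that these letters are not in this window. The promoters of the 4 called members with an NRF1 or ETS match are printed 5′ to 3′ along the gene's strand, to show where in the window the letters lie. Over all 74 matched members 12 held the NRF1 core, 18 the ETS core, 8 the YY1 core and 33 the SP core, and no difference between called members and the rest was tested. Capitals mark CTTCCGG, the ETS core read on the other strand, in the following 3 windows, and the overlapping NRF1 cores of both strands in Uqcrc1. They lie at chr4:40279372-40279671 (Ndufb6, minus strand), chr19:3912725-3913024 (Ndufs8, minus strand), chr9:50603800-50604099 (Sdhd, minus strand) and chr9:108936398-108936697 (Uqcrc1, plus strand).
Ndufb6: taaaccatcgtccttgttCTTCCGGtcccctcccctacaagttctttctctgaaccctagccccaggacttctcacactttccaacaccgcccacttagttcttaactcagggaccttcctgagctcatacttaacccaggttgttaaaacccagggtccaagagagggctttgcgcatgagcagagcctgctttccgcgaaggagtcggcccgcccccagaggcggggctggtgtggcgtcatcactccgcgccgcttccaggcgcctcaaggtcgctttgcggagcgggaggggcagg
Ndufs8: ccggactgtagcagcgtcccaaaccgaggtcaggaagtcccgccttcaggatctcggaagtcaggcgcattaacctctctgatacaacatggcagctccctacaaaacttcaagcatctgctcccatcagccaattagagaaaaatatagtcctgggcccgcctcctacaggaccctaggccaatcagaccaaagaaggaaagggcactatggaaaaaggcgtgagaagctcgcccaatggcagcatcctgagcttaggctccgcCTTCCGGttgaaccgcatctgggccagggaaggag
Sdhd: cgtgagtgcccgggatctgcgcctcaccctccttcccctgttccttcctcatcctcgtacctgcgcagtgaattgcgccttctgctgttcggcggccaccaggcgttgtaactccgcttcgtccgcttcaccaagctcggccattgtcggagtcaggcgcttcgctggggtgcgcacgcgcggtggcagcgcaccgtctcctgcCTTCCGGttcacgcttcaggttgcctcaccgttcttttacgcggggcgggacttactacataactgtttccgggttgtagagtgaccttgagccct
Uqcrc1: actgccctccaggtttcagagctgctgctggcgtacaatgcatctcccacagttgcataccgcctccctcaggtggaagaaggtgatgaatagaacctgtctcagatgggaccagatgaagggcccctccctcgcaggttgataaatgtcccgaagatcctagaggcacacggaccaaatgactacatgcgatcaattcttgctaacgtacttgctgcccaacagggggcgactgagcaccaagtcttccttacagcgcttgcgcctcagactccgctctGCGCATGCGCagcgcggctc
The match lay 232 bases before the start in Ndufb6 and 46 bases before it in Sdhd, and just after the start in Ndufs8 and Uqcrc1.

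Other metabolic and mitochondrial gene groups were counted in the same way, beside 7.28% of all genes called higher in spleen and 12.3% called lower. The share called lower was above 12.3% in glycolysis, the tricarboxylic acid cycle and, slightly, protein import, and below it in the other groups. Of 78 mitochondrial ribosomal proteins, which translate the 13 mitochondrial messages, 3 were lower in spleen (Mrps22, −1.54; Mrpl28, −0.95; Mrpl37, −0.76), none was higher, and the median was −0.31. Protein import had 3 of 23 lower (median −0.31), led by Timm17b (−1.40) and Timm50 (−1.33). The tricarboxylic acid cycle had 3 of 14 lower (median −0.42), led by Idh2 (−1.57). In glycolysis, which makes ATP in the cytosol, 6 of 21 genes were lower and 1 higher (median −0.71), with Gapdh at −1.52 and Tpi1 at −1.38. Genes for replication and transcription of mtDNA had 2 of 17 higher, Mterf1a (1.70) and Mterf3 (1.16), and none lower (median −0.14). For processing and stability of mitochondrial mRNA, 1 of 15 was lower, the RNA helicase Supv3l1 (−0.86), and the median was −0.86. Of 37 assembly factors outside the member list, 2 were higher (Tmem126b, 0.93, and Surf1, 0.75) and 1 was lower (Atpaf2, −1.05). None of 14 genes for cytochrome c and coenzyme Q and none of 8 regulators of mitochondrial biogenesis was called by edgeR. At an unadjusted p under 0.05 in that test the former had 1 higher and 4 lower and the latter 1 lower, against 12.6% of all genes higher and 21.0% lower. The median of the latter was −0.81, against −0.18 over all genes. At the same level 15 of the 78 mitochondrial ribosomal proteins were lower and none was higher, and of the 15 genes for mitochondrial mRNA 3 were higher and 3 lower.

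In BM, no member was called between DNGR-1 KO and WT (edgeR, 13016 genes tested, of which 0.0307% were called), nor with DESeq2 or limma-voom. In simulated data the edgeR fit recovered 0% of log2 changes of 1, so the lack of calls does not show equal levels. At an unadjusted p under 0.05, 15 members were lower in DNGR-1 KO and none was higher, and every adjusted p was at least 0.861. Among all genes 2.27% were lower at this unadjusted level. Of the 15, 10 were mitochondrial. The median log2 fold change was −0.73 over the mitochondrial genes, −0.21 over the nuclear members and 0.00 over all genes. Other groups had medians like that of the nuclear members or lower: −0.30 over cytosolic and over mitochondrial ribosomal proteins and −0.29 over protein import. Glycolysis (−0.05) and the tricarboxylic acid cycle (−0.09) lay nearer to that of all genes. For 10 members (mt-Nd1, mt-Nd4, mt-Nd4l, mt-Co2, mt-Atp6, mt-Atp8, Ndufv1, Ndufaf6, Atp5s and Atp5d) all DNGR-1 KO samples lay below all WT samples, against 4.75% of all genes. The summed mitochondrial level was 9982 ± 3151 CPM over the WT samples and 6350 ± 614 CPM over the DNGR-1 KO samples (SD, n = 3 each), 1.52-fold lower by geometric means.

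mt-Nd1 had 2488, 1704 and 1155 CPM in WT BM and 988, 1117 and 953 CPM in DNGR-1 KO BM (log2 fold change −0.81, unadjusted p = 0.0165). mt-Co2 had 387, 302 and 205 CPM for WT against 196, 167 and 173 CPM for DNGR-1 KO (−0.74, unadjusted p = 0.0172). For both genes the WT samples were spread over a wider range than the DNGR-1 KO samples, and WT BM replicate 3 was close to them. mt-Nd4 had 696, 598 and 411 CPM for WT against 335, 402 and 322 CPM for DNGR-1 KO (−0.69, unadjusted p = 0.0189). mt-Nd2 had 254, 184 and 99.4 CPM for WT against 96.7, 102 and 81.5 CPM for DNGR-1 KO (−0.94, unadjusted p = 0.0157), with WT BM replicate 3 inside the DNGR-1 KO range. mt-Atp8, with 181, 132 and 88.3 CPM against 56.6, 82.5 and 83.5 CPM, had a log2 fold change of −0.85 (unadjusted p = 0.0179). mt-Cytb had −0.73 (unadjusted p = 0.0204), mt-Nd3 −1.35 (0.0216), mt-Nd4l −1.26 (0.0174), mt-Atp6 −0.69 (0.0331) and mt-Co1 −0.57 (0.0395), all on the log2 scale with unadjusted p. mt-Nd5 and mt-Co3 each had −0.42, and mt-Nd6 had 0.05. The 5 nuclear members at this level were Cox6b2 (−0.95), the assembly factors Ndufaf4 (−0.80) and Ndufaf6 (−0.79), Atp5s (−0.79) and Atp5g1 (−0.71).

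These differences leaned on single samples. In WT BM replicate 1, 85 cytosolic ribosomal protein genes also took 7.41% of counts, against 3.62 to 5.84% in the other BM samples. Without it, mt-Co2 (−0.51) was the only member left at an unadjusted p under 0.05 in the edgeR fit. The median of the nuclear members went from −0.21 to 0.09, with 54 of 87 positive, while that of the mitochondrial genes went from −0.73 to −0.48, with 12 of 13 negative. The number of all genes lower at an unadjusted p under 0.05 moved as well, from 295 of 13016 with all samples to 91 of 13492 without WT BM replicate 1. Without DNGR-1 KO BM replicate 2 the nuclear median was −0.05, and 7 mitochondrial and no nuclear members were lower at this level, with 100 of all 13422 genes. Without DNGR-1 KO BM replicate 1, 7 mitochondrial and 4 nuclear members were, with 899 of 13362 genes. Without DNGR-1 KO BM replicate 3 the nuclear median was −0.40, and 2 mitochondrial genes and 1 nuclear member were at this level, with 140 of 13423 genes. Without WT BM replicate 3 the medians were −0.95 over the mitochondrial genes, 11 of them at this level, and −0.34 over the nuclear members, with 5 at this level, and 494 of 13515 genes. The fit without WT BM replicate 2 gave a nuclear median of −0.35, with 7 mitochondrial and 3 nuclear members at this level and 138 of 13449 genes. Markers of other cells overlapped between the genotypes in BM: T and NK cell markers summed to between 18.1 and 33.9 CPM for WT, between 15.1 and 47.1 CPM for DNGR-1 KO, neutrophil markers to between 1214 and 2692 CPM and between 1000 and 2985 CPM, and erythroid markers to between 1608 and 4398 CPM and between 254 and 2170 CPM. Proliferation markers did not overlap, at 4611 to 5181 CPM for WT cells against 5257 to 5647 CPM for DNGR-1 KO, and their part was not tested.

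**Figure D5:**
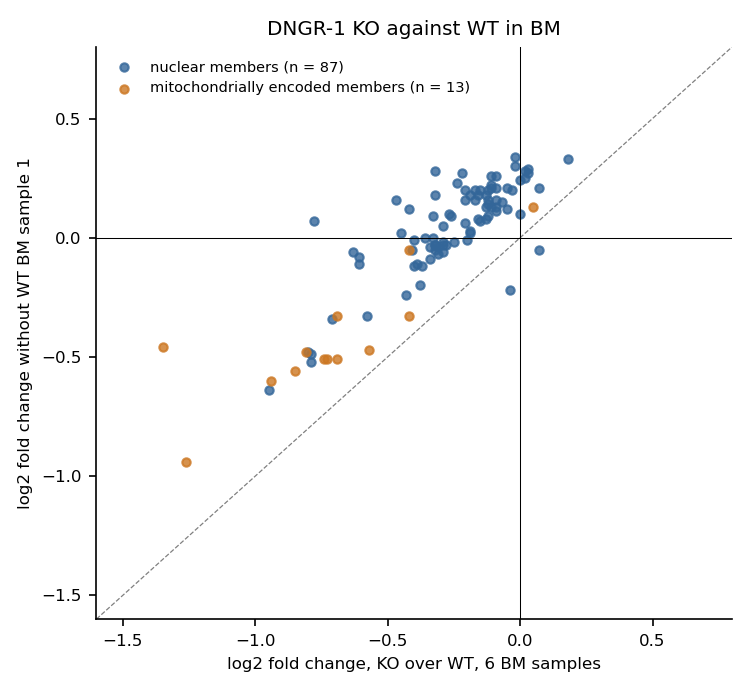
log2 fold change in BM, DNGR-1 KO over WT, of each tested member with all 6 samples (x axis) and without WT BM replicate 1 (y axis), nuclear and mitochondrial genes in separate colours. The nuclear median moves from −0.21 to 0.09 and the mitochondrial median from −0.73 to −0.48.

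In spleen, the single WT sample allowed no replicate check of the genotype difference, and its values are given without a test. The mean of the DNGR-1 KO samples differed from WT by a median of 0.03 in log2 over the nuclear members, 0.08 over the mitochondrial genes and 0.03 over all genes. The mitochondrial median was 0.31 in DNGR-1 KO replicate 1 and 0.16 in replicate 2, and the nuclear median changed sign, at 0.17 and −0.05. Differences of at least 1 on the log2 scale in both DNGR-1 KO samples were found upward in 1 nuclear member (Ndufaf1) and downward in 2 (Cox6a2 and Atp5s), and in no mitochondrial gene. Among all genes, 15.1% lay at least this far up and 7.69% this far down. Ndufaf1 (chromosome 2, 119655446 to 119662827), an assembly factor of the complex I membrane arm, had 0 counts in WT spleen, 574 and 741 in DNGR-1 KO spleen, and between 367 and 739 in BM, so that it was listed at 0 in WT spleen only. It shared this with many genes: 396 genes had 0 counts in WT spleen and at least 100 in both DNGR-1 KO spleen samples, 208 of them with at least 100 in every BM sample. Atp5s had 334 counts in WT spleen and 46 and 159 in DNGR-1 KO spleen (−2.22), Cox6b2 had 291 and 168 and 85 (−1.55), and Ndufaf7 had 1672 and 889 and 1340 (−0.90). Ndufa5 (−0.87) and Ndufs1 (−0.66) were also lower in both DNGR-1 KO samples, while Atp5g2 (1.08), Ndufaf2 (1.07), Ndufaf8 (1.04) and Ndufa12 (0.89) were higher.

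The interaction of tissue and genotype was fitted over all 9 samples, with 1 library for WT spleen. It was called for 2 members, Ndufaf1 (adjusted p = 0.00132) and Cox6a2 (adjusted p = 0.0191), against 8.85% of all genes. The median interaction was 0.77 in log2 over the mitochondrial genes and 0.29 over all genes. Both medians rest on the 1 WT spleen library, and no conclusion is drawn from them. Since Ndufaf1 is at 0 in WT spleen and Cox6a2 at 0 in DNGR-1 KO spleen, their fitted fold changes depend on the prior count and are not given. The fit assumes that the lone WT spleen sample varies like the other groups, limma-voom called neither gene, and neither was left in the test when every sample needed at least 10 counts. No difference between tissues is drawn from these 2 calls.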

How the data were processed

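Per the labels and methods, total RNA of sorted pre-cDCs was depleted of ribosomal RNA and sequenced. The authors' processing notes name Trimmomatic 0.36, STAR 2.5.2, RSEM 1.3.0, DESeq2 1.18.1, R 3.4.3 and GRCm38. The annotation release and strand setting are not given in the sources used here. The deposited expected counts per gene, of which 25.6% of the values above 0 were not whole, were rounded. The authors' deposited log2 values (variance-stabilized) served as an alternative only. Symbols, lengths and positions came from GENCODE M21.

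The main test was edgeR 4.0.16 (R 4.3.3, quasi-likelihood, TMM, filterByExpr, Benjamini-Hochberg over all genes, threshold 0.05), with genotype in the tissue model. SE was derived from the log2 fold change and its F. CPM are TMM-normalized, and log2 CPM used a prior count of 2. Alternatives were DESeq2 1.42.0, limma 3.58.1 (voom and deposited log2), other filters and scalings, a replicate block, and leaving out each sample. The scripts were tested on simulated data with known changes in 192 to 194 tested genes. Log2 changes of 1 were recovered in 0% of these in the BM and in the tissue fit. Log2 changes of 2 were recovered in 70.6% (BM) and 36.8% (tissue). A gene that was not called is therefore not shown to be unchanged. The members and lists were chosen with earlier results of these data known. Genes named individually were all mitochondrial genes, core subunits and restricted isoforms with their partners, up to 10 nuclear members with the lowest adjusted p between tissues, the 10 members with the lowest unadjusted p in BM, and the 5 highest and 5 lowest differences in spleen with a mean of at least 50 counts; others named within a list were chosen after their values were seen. Splenic cDC1 samples were not analysed here. Some individual genes covered by this naming rule are not reported here.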

Additional observations from a re-analysis of the deposited data

Results flagged for a closer look

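The interaction term of tissue and genotype passed the threshold for 2 members (edgeR quasi-likelihood test, Benjamini-Hochberg adjustment), in a fit with 1 library for WT spleen. Ndufaf1 (adjusted p = 0.00132) had 712, 537 and 649 counts in WT BM, 739, 367 and 523 in DNGR-1 KO BM, 0 in WT spleen, and 574 and 741 in DNGR-1 KO spleen. Cox6a2 (adjusted p = 0.0191) had 178, 86 and 203 counts in WT BM, 149, 128 and 189 in DNGR-1 KO BM, 17 in WT spleen, and 0 in both DNGR-1 KO spleen samples. Both rest on counts of 0 and on the 1 WT spleen sample, whose spread was not measured, so that they do not show a genotype difference that is unlike in the 2 tissues. The interaction was called for 8.85% of all genes, a larger share than the 2 of 100 members, and limma-voom called neither (adjusted p = 0.0734 for Ndufaf1 and 0.153 for Cox6a2). In all, 396 genes had 0 counts in WT spleen and at least 100 in both DNGR-1 KO spleen samples, Ndufaf1 among them.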

How the results depend on the processing

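The number of nuclear members called between tissues, 16, was 2 with a replicate block and 1 in the DNGR-1 KO samples alone, and ranged from 5 to 20 when each sample was left out. The 20, without WT BM replicate 1, include 1 member called higher, Ndufa13. It was between 14 and 21 under the other 8 alternatives. The 8 mitochondrial calls became 5 with the replicate block and ranged from 6 to 10 over the left-out samples, where 5.13 to 8.10% of all genes were called higher (3.19% with the block). Some samples shared mice, but no source used here ties the replicate numbers to mice, so the block may not match them. In BM, deviations of same-numbered samples correlated at 0.103, 0.099 and −0.082, which does not settle the pairing. The 2 interaction calls became 0 with limma-voom and 0 with a minimum of 10 counts in every sample, a filter that removes both genes. The log2 difference of the mitochondrial sum between tissues, 0.81, was 1.18 in the DNGR-1 KO samples alone, and that of the ratio, 1.29, was 1.57, an alternative chosen after seeing the data. Among WT samples alone the mitochondrial sum of the 1 spleen sample, 12566 CPM, lay within the BM range of 7000 to 13278 CPM. The spleen mitochondrial median of 0.08 was 0.16 to 0.31 with either DNGR-1 KO sample left out. Ndufaf7 changed sign between tissues, from 0.10 to −0.28, without WT spleen and in the DNGR-1 KO samples alone, with no call (range −0.28 to 0.26 over the left-out samples). As Ndufaf1 had 0 counts in WT spleen, its log2 difference in spleen has no fixed size. It was 8.29 with the prior count of 2, 10.29 with 0.5 and 6.98 with 5, and none of these is an estimate of it. Without WT BM replicate 1 the summed nuclear difference between genotypes in BM changed from −0.17 to 0.05. Over all genes the tissue calls, 2631, were 1246 with the block, 1336 in DNGR-1 KO alone and 3946 with DESeq2, and the interaction calls, 1192, were 2151 with DESeq2, 167 with the count minimum and 0 with voom. The causes were not tested. At a depth of 17103806 counts or more, 4 members had 0 counts in every sample. The 1 WT spleen sample limits every value that rests on it.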
